A study of Rattus norvegicus with 39 samples.

Results

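Adrenalectomised rats with a 200 mg corticosterone pellet were set against intact rats, on 19 of the 39 arrays of the series. Arrays whose titles name the intermediate pellet form IntermediateCORT (9 arrays, 1 per rat), and arrays titled sham form Sham (10 arrays). IntermediateCORT rats had lost their adrenal glands and carried the slow-release pellet under the skin for 3 months. Sham rats were operated on without removal of the glands and carried an inert pellet. All were male Fischer 344 rats of 18 months at death, housed singly and killed in the morning. Before the pellet was placed, adrenalectomised rats drank saline with sucrose and received softened feed, apple and injections of a corticosterone preparation. The labels say that low-pellet rats went on with the saline and sucrose, and do not say so of IntermediateCORT rats. The remaining groups serve for orientation and are LowCORT_injected (10 arrays, adrenalectomy, a 25 mg pellet and 5 mg of corticosterone per day on 4 days just before the end) and LowCORT (10 arrays, adrenalectomy and the 25 mg pellet). The comparison asks how near replacement with the larger pellet comes to the intact state in hippocampal CA1.

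Corticosterone is the main glucocorticoid of the rat. It binds the mineralocorticoid receptor Nr3c2 with high affinity and the glucocorticoid receptor Nr3c1 with lower affinity, and both receptors are transcription factors that are abundant in CA1 pyramidal neurons. Adrenal glands release the hormone in pulses with a daily rhythm, while a slow-release pellet does not follow that rhythm, and adrenalectomy also removes aldosterone and the adrenaline of the adrenal medulla.

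The arrays measured RNA from blocks of CA1 tissue, so fewer cells of a type and less RNA per cell cannot be told apart in any result below. Of the listed markers of CA1 pyramidal neurons, 5 had a probe set with that symbol alone, and Wfs1, Mpped1, Fibcd1 and Nov (also searched as Ccn3) had none, so the label of the tissue was checked only in part. Arrays correlated across probe sets at 0.984 to 0.997 within IntermediateCORT, at 0.977 to 0.996 within Sham, and at 0.980 to 0.998 between them, and no array was a copy of another. The difference between 3' and 5' control probe sets, which follows the length of RNA and cDNA, averaged 0.63 ± 0.21 for Gapdh in IntermediateCORT (SD, n = 9) and 0.70 ± 0.22 in Sham (SD, n = 10; two-sided exact permutation p = 0.519, adjusted p = 0.897 over 2 relations). For beta-actin it averaged 0.65 ± 0.36 in IntermediateCORT and 0.68 ± 0.41 in Sham (two-sided exact permutation p = 0.897, adjusted p = 0.897). Within both groups this difference moved with the subject number. For beta-actin it was 0.41 and 0.19 in the IntermediateCORT animals 11 and 12 and 1.45 in animal 19, against 0.38 and 0.20 in the Sham animals 1 and 2 and 1.52 in animal 10. Principal components of the 19 arrays were taken after each group's mean was subtracted, so they cannot show a difference between the groups. The same animals lay at the ends of the first component (23.9% of the variance within groups). Their scores were -12.45, -15.53 and 13.61 in IntermediateCORT, against -14.35, -14.17 and 13.09 in Sham. Sham animal 6 did not follow its number, with 0.10 for beta-actin, the lowest of the 19 arrays, and 0.96 for Gapdh. It lay at -24.28 on the second component (16.4% of the variance within groups). The labels do not say what the subject numbers stand for beyond naming an animal.

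Few transcripts set IntermediateCORT apart from Sham. Of 8740 probe sets, 2 were higher in IntermediateCORT and 0 were lower by limma at an adjusted p under 0.05, a share of 0.0229%. At an unadjusted p under 0.05 there were 336 (3.84%), of which 195 (2.23%) were higher and 141 (1.61%) lower, and 44.6% of all differences were above 0. The called probe sets were AF030088UTR#1_at, which carries no gene symbol in the table used here, and 1 of 4 probe sets of Cd74, the invariant chain of MHC class II. Fitted in the same way, LowCORT against Sham had 91 called probe sets (1.04%), which share the Sham arrays, and IntermediateCORT against LowCORT had 175 (2.00%), which share the IntermediateCORT arrays.

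A p that misses the threshold does not show that levels were alike, so the intervals of the differences were counted. The 95% interval of the log2 difference lay inside 1.5-fold either way for 8603 probe sets (98.4%) and inside 1.2-fold for 6709 (76.8%). The median absolute log2 difference was 0.045, against a median half-width of the interval of 0.14. The same median was 0.061 for LowCORT minus Sham and 0.056 for IntermediateCORT minus LowCORT. Most probe sets thus differed little in any of these pairs, which share arrays. Only 13 probe sets had a difference over 1.5-fold in this fit, among them Sgk1, the serum- and glucocorticoid-regulated kinase, on the lower side. The plot of all probe sets against their p-values shows these tails. Arrays of IntermediateCORT scattered less than those of Sham, with a median SD over probe sets of 0.132 in IntermediateCORT and 0.164 in Sham, and 29.1% of probe sets had the larger SD in IntermediateCORT.

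**Figure D1:**
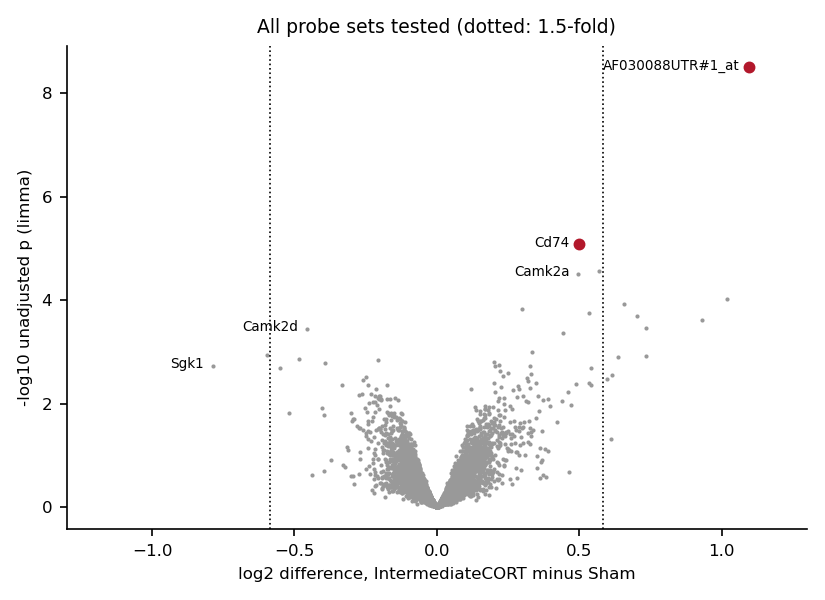
Log2 difference of IntermediateCORT minus Sham (x axis) against -log10 of the unadjusted limma p (y axis) for each of 8740 probe sets; red points are the 2 called probe sets and dotted lines mark 1.5-fold. Both called probe sets lie on the higher side, and Sgk1 at -0.79 lies farthest out on the lower side without passing the adjusted threshold.

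Probe set AF030088UTR#1_at had the smallest p and the largest difference. Its log2 values in IntermediateCORT were 8.24, 8.36, 8.38, 8.60, 8.71, 8.81, 8.91, 8.95 and 9.14. In Sham the lowest value was 7.28, the median 7.56 and the highest 8.00. Every IntermediateCORT array lay above every Sham array, the only probe set for which the groups did not overlap (0.0114% of 8740). The log2 difference was 1.10 (SE 0.11, limma adjusted p = 2.77e-05), or 2.14-fold. In the rats with the 25 mg pellet the levels reached into the ranges of both groups. LowCORT_injected ranged from 7.29 to 8.57 and LowCORT from 7.72 to 8.91. LowCORT exceeded Sham by 0.65 (SE 0.16, limma adjusted p = 0.0493).

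Cd74 chaperones newly made MHC class II molecules and keeps peptides out of their groove until they reach the endosome. By X13044_g_at, its log2 values in IntermediateCORT were 7.00 at the lowest, 7.39 at the median and 7.66 at the highest. In Sham they were 6.62, 6.85 and 7.15. The groups overlapped at their edges, and 9 of 9 IntermediateCORT arrays lay above the Sham mean. The log2 difference was 0.50 (SE 0.09, limma adjusted p = 0.0361), or 1.41-fold. This call was close to the threshold. It was lost when any of the animals 11, 12, 14, 15, 16, 18 and 19 of IntermediateCORT or 1, 6, 7, 8, 9 and 10 of Sham was left out (differences of 0.46 to 0.51 there, and adjusted p of 0.0047 to 0.113 over the 19 omissions), and with all 39 arrays in 1 model (adjusted p = 0.499).

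The other probe sets of Cd74 did not pass. X13044_at had a difference of 0.57 (SE 0.11, limma adjusted p = 0.0668) and X14254cds_g_at had 0.33 (SE 0.09, adjusted p = 0.668). X14254cds_at, which stands for the gene in lists because its mean was highest over the 19 arrays, had 0.12 (SE 0.08, adjusted p = 0.999). All 4 differences were positive and 1 of 4 was called. In LowCORT_injected the called probe set ranged from 6.48 to 7.66, and in LowCORT from 6.60 to 7.82, both wider than in Sham. The highest animal of each of these groups thus lay above every Sham animal.

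RT1-Da, the alpha chain of a rat MHC class II molecule, had values of 7.23, 7.76 and 8.22 (lowest, median, highest) in IntermediateCORT by M15562_g_at, against 7.00, 7.29 and 7.53 in Sham. Its difference was 0.44 (SE 0.11, limma adjusted p = 0.292), with 8 of 9 IntermediateCORT arrays above the Sham mean, and it was not called. The other probe set of RT1-Da, M15562_at, had 0.10 (SE 0.06). RT1-Db1, the beta chain partner, had 0.18 (SE 0.09, unadjusted limma p = 0.0468), with a mean level under the 30th percentile of all probe sets. B2m, the light chain of MHC class I, had -0.01 (SE 0.06), with an interval of -0.14 to 0.12. Of 20 listed MHC class I and II genes 15 were measured, each by its probe set with the highest mean. None was called, 6 were positive and 9 negative, and the median was -0.01, beside -0.01 over all genes. At an unadjusted limma p under 0.05 there were 3 of the 15, beside 3.84% of all probe sets. Microglia and macrophages carry class II molecules in brain, and of 18 listed markers of these cells 14 were measured, with 0 called, 4 positive and 10 negative. Their median was -0.03. The log2 of their summed level ranged from 12.64 to 12.76 in IntermediateCORT and from 12.63 to 12.83 in Sham. The markers ran from -0.16 for C1qb to 0.12 for Cd74. An unadjusted limma p under 0.05 was reached by 1 of the 14, beside 3.84% of all probe sets. Aif1 (-0.05), Csf1r (0.01) and Cx3cr1 (-0.06), picked from this list with the values known, stayed within 0.1 of Sham.

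Class II genes and Cd74 share a promoter module known as the X and Y boxes, which the factor RFX, NF-Y and the coactivator CIITA occupy. The promoter windows of Cd74, RT1-Da and RT1-Db1 are shown because these had the smallest p among the class II genes here. Sequences are from RefSeq, build GRCr8, from 250 bases before to 50 bases after the gene's start, 5′ to 3′ on the gene's strand. The letters TAGCAAC (core of the X box) and ATTGG (the inverted CCAAT of the Y box) were searched on both strands, and matches are in capitals.
Cd74 (chr18:56526956-56527255, plus strand): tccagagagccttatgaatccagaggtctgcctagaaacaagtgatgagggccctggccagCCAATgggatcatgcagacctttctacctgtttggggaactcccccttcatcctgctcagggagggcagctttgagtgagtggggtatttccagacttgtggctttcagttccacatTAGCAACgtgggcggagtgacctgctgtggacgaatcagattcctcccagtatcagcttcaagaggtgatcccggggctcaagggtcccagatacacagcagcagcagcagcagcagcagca
RT1-Da (chr20:4515165-4515464, plus strand): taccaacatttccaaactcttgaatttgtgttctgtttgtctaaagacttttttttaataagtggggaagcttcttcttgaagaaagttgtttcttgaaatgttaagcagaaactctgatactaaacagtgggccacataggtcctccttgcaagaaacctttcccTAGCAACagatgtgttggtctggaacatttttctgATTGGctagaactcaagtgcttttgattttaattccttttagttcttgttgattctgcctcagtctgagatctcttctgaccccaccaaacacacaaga
RT1-Db1 (chr20:4560113-4560412, minus strand): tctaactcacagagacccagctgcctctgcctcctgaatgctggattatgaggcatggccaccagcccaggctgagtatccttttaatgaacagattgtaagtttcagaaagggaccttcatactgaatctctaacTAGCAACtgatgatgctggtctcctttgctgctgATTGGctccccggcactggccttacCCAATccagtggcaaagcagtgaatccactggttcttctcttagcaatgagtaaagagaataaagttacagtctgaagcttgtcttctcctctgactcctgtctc

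The letters of the X box core began 72 bases before the start in Cd74, 84 in RT1-Da and 114 in RT1-Db1. The ATTGG letters followed downstream on the same strand in RT1-Da (49 bases before the start) and RT1-Db1 (80 bases), and RT1-Db1 held them also on the opposite strand. In Cd74 they occurred on the opposite strand, 189 bases before the start. Of 33469 promoter windows of 300 bases, 3.58% held TAGCAAC, 37.5% held ATTGG and 1.42% held both. A match describes letters in the window and is not a measured binding site, and the motifs were chosen with the values known.

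Camk2a encodes the alpha subunit of the calcium/calmodulin kinase that strengthens glutamate synapses. By M16960_s_at its log2 values were 8.05, 8.24 and 8.61 (lowest, median, highest) in IntermediateCORT and 7.24, 7.84 and 8.13 in Sham. All 9 IntermediateCORT arrays lay above the Sham mean, with a difference of 0.50 (SE 0.09, limma adjusted p = 0.0668) that did not pass. The other probe set, J02942_at, had 0.07 (SE 0.07), with an interval of -0.07 to 0.21, so the 2 probe sets disagreed. Camk2d, the delta subunit, had -0.46 by rc_AA894330_s_at (SE 0.11, adjusted p = 0.261), with 8 of 9 arrays below the Sham mean. Its probe sets disagreed as well, since rc_AA925495_at had -0.22 (SE 0.08) and the remaining 4 had -0.08 to 0.01. Camk2b and Camk2g had 0.24 (SE 0.15) and 0.10 (SE 0.12). The plot of single arrays shows the separation for AF030088UTR#1_at and the disagreement between the probe sets of Camk2a.

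**Figure D2:**
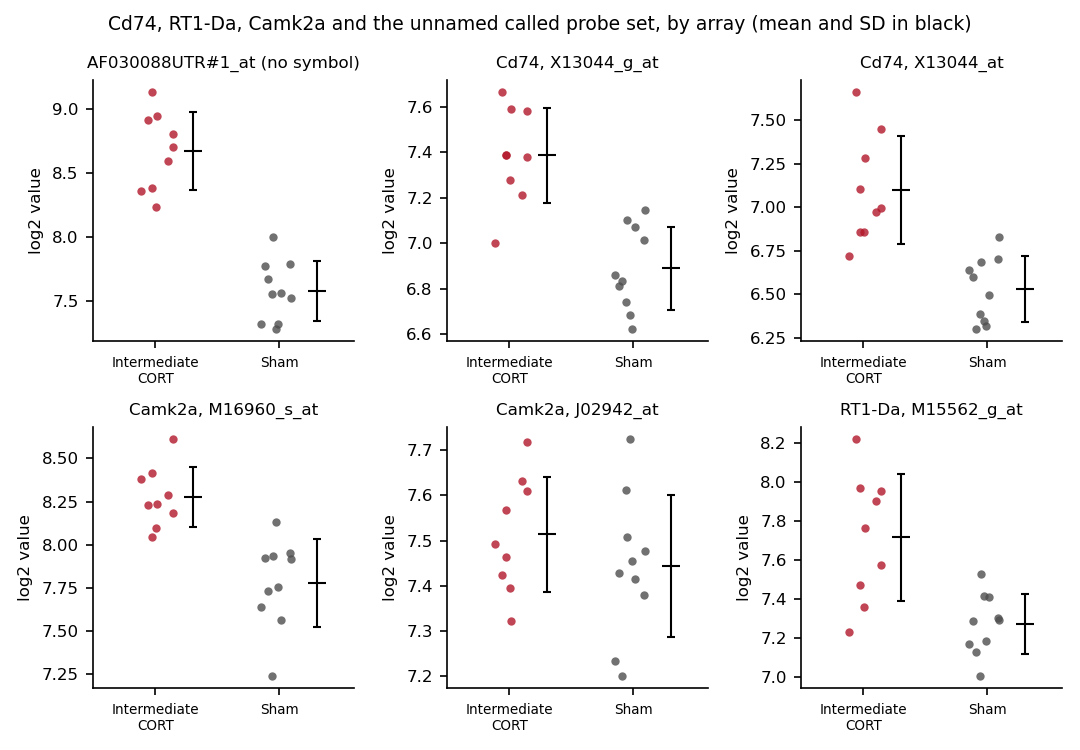
Log2 values by array (y axis) in IntermediateCORT (red, n = 9) and Sham (grey, n = 10), with mean and SD in black, for the unnamed called probe set, 2 probe sets each of Cd74 and Camk2a, and RT1-Da. AF030088UTR#1_at shows no overlap (8.24 to 9.14 in IntermediateCORT, 7.28 to 8.00 in Sham), while Camk2a by J02942_at overlaps widely.

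Sgk1, which glucocorticoids induce and which regulates ion channels and transporters, stayed between the low pellet and the intact level. Its log2 values in IntermediateCORT were 8.11 at the lowest, 8.54 at the median and 9.70 at the highest. In Sham they were 8.45, 9.47 and 10.25. The groups overlapped, and 8 of 9 IntermediateCORT arrays lay below the Sham mean. The difference was -0.79 (SE 0.22, interval -1.25 to -0.33, limma adjusted p = 0.668, unadjusted p = 0.00184), or 1.73-fold lower, and was not called. IntermediateCORT exceeded LowCORT, at a mean of 7.93, by 0.71 (SE 0.14, adjusted p = 0.00977). The means were 8.64 in IntermediateCORT, 8.05 in LowCORT_injected, 7.93 in LowCORT and 9.43 in Sham.

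Within both groups the level of Sgk1 moved with the subject number. In IntermediateCORT animals 11 to 15 had 8.11 to 8.56 and animals 16 to 19 had 8.54 to 9.70. In Sham animals 1 to 5 had 9.53 to 10.25 and animals 6 to 10 had 8.45 to 9.41. IntermediateCORT animals with lower numbers were thus low and Sham animals with lower numbers high. The means were 8.38 in IntermediateCORT and 9.90 in Sham for the lower numbers, and 8.97 in IntermediateCORT and 8.96 in Sham for the higher numbers. The split by number was made with these values known. Order within the group as a covariate leaves the difference at -0.79 by construction (limma adjusted p = 0.574), and it was -0.80 once the control differences between 3' and 5' ends entered the fit (SE 0.23, adjusted p = 0.371). A slope on the number that differs between the groups was not fitted.

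Sult1a1, a sulfotransferase of phenols and steroids, was near the intact level. By L19998_g_at its values were 7.51, 8.19 and 8.95 in IntermediateCORT and 8.04, 8.29 and 8.64 in Sham, with means of 8.17 in IntermediateCORT, 8.33 in LowCORT_injected, 7.33 in LowCORT and 8.31 in Sham. The difference was -0.13 (SE 0.12), with an interval of -0.39 to 0.12 that lies inside 1.5-fold. The spread was wider in IntermediateCORT, with animal 11 lowest and animal 19 highest. By L19998_at the difference was -0.33 (SE 0.22) and its interval, -0.79 to 0.14, reached past 1.5-fold.

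Calb1, the calcium buffer calbindin, had values of 9.26, 9.96 and 10.36 in IntermediateCORT and 9.66, 9.95 and 10.21 in Sham. Its difference was -0.01 (SE 0.11, interval -0.22 to 0.21), while IntermediateCORT exceeded LowCORT by 0.60 (SE 0.13, limma adjusted p = 0.0132). Il6r, the interleukin-6 receptor, had 6.76, 7.13 and 7.40 in IntermediateCORT and 6.75, 7.10 and 7.37 in Sham, a difference of -0.01 (SE 0.09, interval -0.20 to 0.18). Its mean in LowCORT was 6.62. For Il6r the groups spanned almost the same range, while Calb1 was more spread in IntermediateCORT (SD 0.30) than in Sham (SD 0.19), with animal 11 far below the others.

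Ifitm3 and Car4, which were high on the low pellet, were also close to the intact level, and further genes are given beside them. Ifitm3, which interferon induces and which keeps viruses from entering cells, had 7.88, 8.08 and 8.26 in IntermediateCORT and 7.59, 8.04 and 8.25 in Sham. Its difference was 0.10 (SE 0.08, interval -0.07 to 0.27), and its mean was 8.62 in LowCORT. Slfn5, of the interferon-inducible schlafen family, had -0.07 (SE 0.07, interval -0.22 to 0.08). Of 26 listed interferon response genes 15 were measured, with 0 called, 5 positive and 10 negative and a median of -0.04, beside -0.01 over all genes. Their median of LowCORT minus Sham was 0.09. Car4, a membrane-bound carbonic anhydrase, had 0.09 (SE 0.05) and 0.08 (SE 0.06) in its 2 probe sets, both with intervals inside 1.2-fold. For these probe sets LowCORT minus Sham was 0.53 and 0.48, both called. Fcgr2b, an inhibitory receptor for immunoglobulin G, had -0.06 (SE 0.09).

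Hk2, a hexokinase, came less close by 1 of its probe sets. By D26393exon_s_at it had 6.90, 7.08 and 7.25 in IntermediateCORT and 6.66, 6.94 and 7.10 in Sham, with 9 of 9 IntermediateCORT arrays above the Sham mean. The difference was 0.17 (SE 0.06, interval 0.03 to 0.30, limma adjusted p = 0.999), and the mean in LowCORT was 7.53. The other probe set, M68971_at, had -0.11 (SE 0.06). The means of these comparisons share arrays and are given side by side only.

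**Figure D3:**
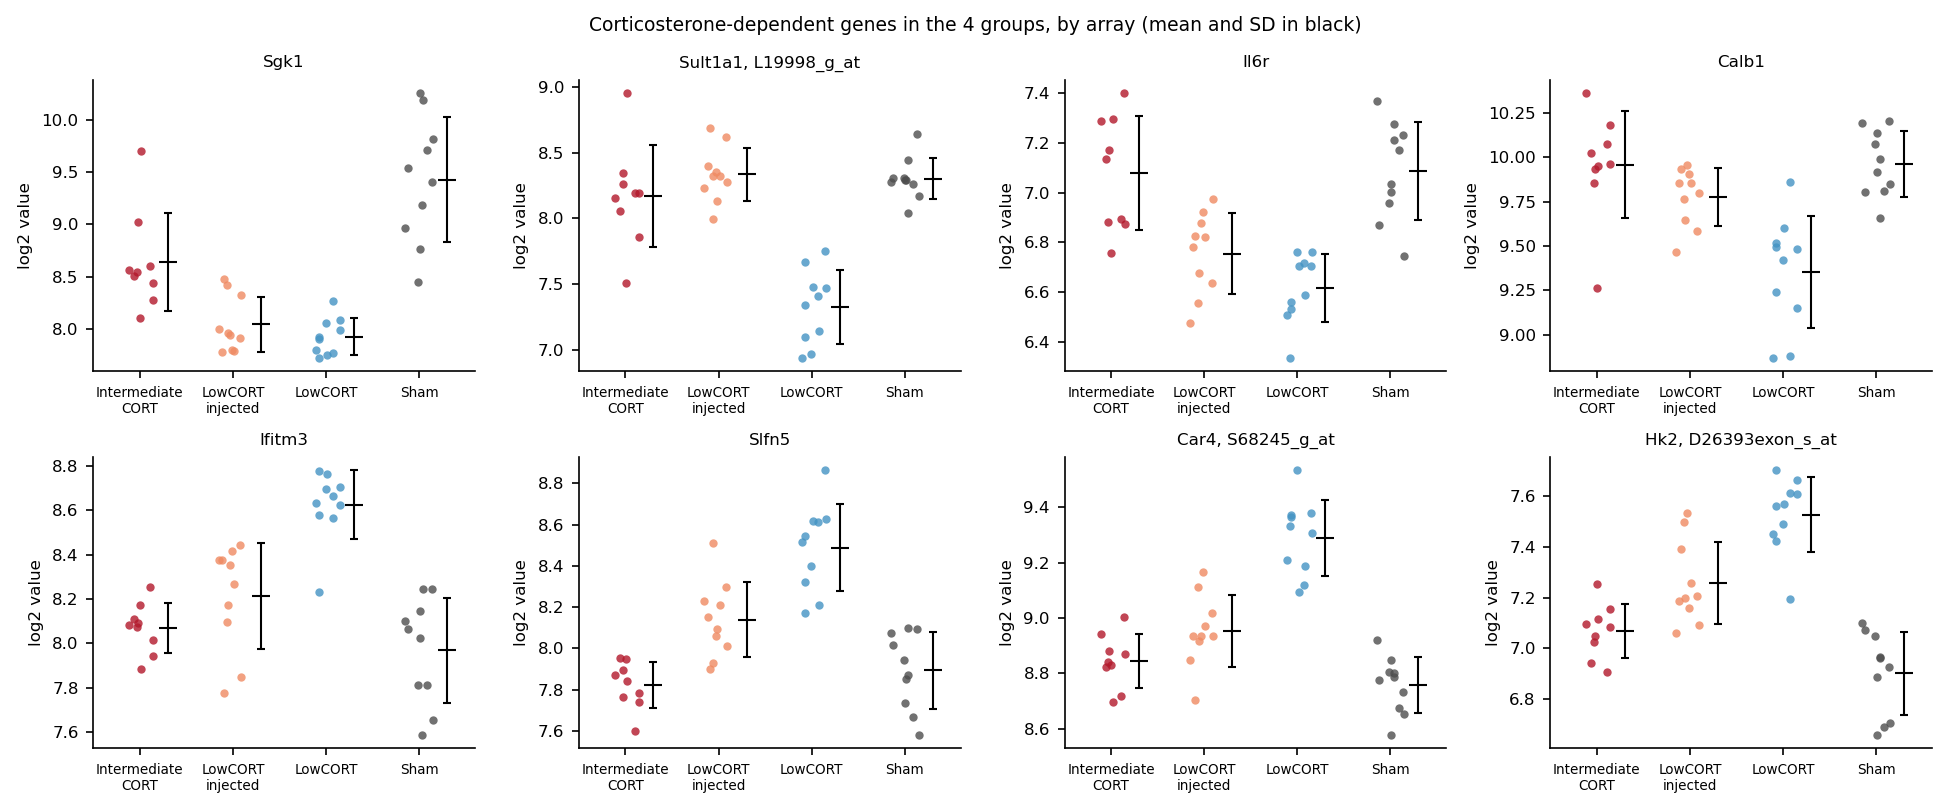
Log2 values by array (y axis) of Sgk1, Sult1a1, Il6r, Calb1, Ifitm3, Slfn5, Car4 and Hk2 in IntermediateCORT (n = 9), LowCORT_injected, LowCORT and Sham (n = 10 each), with mean and SD in black. IntermediateCORT overlaps Sham in each panel, with the widest gap of means for Sgk1 (8.64 in IntermediateCORT and 9.43 in Sham).

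The receptors themselves lay close to Sham. Nr3c1 had 7.13, 7.26 and 7.35 in IntermediateCORT and 7.10, 7.26 and 7.36 in Sham by rc_AA893618_s_at, a difference of -0.01 (SE 0.05, interval -0.11 to 0.09). Nr3c2 had 8.04, 8.42 and 8.53 in IntermediateCORT and 7.84, 8.31 and 8.89 in Sham by M36074_g_at, a difference of 0.08 (SE 0.11), and its mean in LowCORT was 8.70. Hsd11b1, which regenerates active corticosterone inside cells, had -0.06 (SE 0.07, interval -0.21 to 0.10). Of 20 listed receptors and steroid-handling genes 12 were measured, with 0 called and 0 at an unadjusted p under 0.05.

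Of 31 listed glucocorticoid-induced genes 18 were measured, and 0 were called in either direction. Negative values were held by 15 of 18, with a median of -0.08, beside -0.01 over all genes, of which 44.2% were positive. By the probe set that stands for each gene, an unadjusted limma p under 0.05 was reached by 5 of 18, all of them lower in IntermediateCORT. Over all probe sets the share was 3.84%, with 1.61% lower. Beside Sgk1 these were Nfkbia, the inhibitor of NF-kB (-0.20, SE 0.09), Pdk4, a kinase that shuts off pyruvate oxidation (-0.17, SE 0.08), Bcl2l1, an inhibitor of apoptosis (-0.16, SE 0.06), and Tat, tyrosine aminotransferase (-0.16, SE 0.06). Pdk4 and Tat had mean levels under the 30th percentile of all probe sets. Klf9, a transcription factor with a strong glucocorticoid response in neurons, had -0.10 (SE 0.08) and 0.06 (SE 0.08) in its 2 probe sets. The direction depended on the choice of probe set for Dusp1, added after its values were seen. It was counted by U02553cds_s_at (0.11, SE 0.10). By S81478_s_at it was higher by 0.33 (SE 0.14, unadjusted limma p = 0.0301), and by S74351_s_at by 0.21 (SE 0.20). Among the probe sets that stand for the genes, Sgk1 alone reached past 1.5-fold. Their interval lay inside 1.5-fold for 17 of the 18. The plot of these intervals shows Sgk1 apart from a cluster just below 0.

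**Figure D4:**
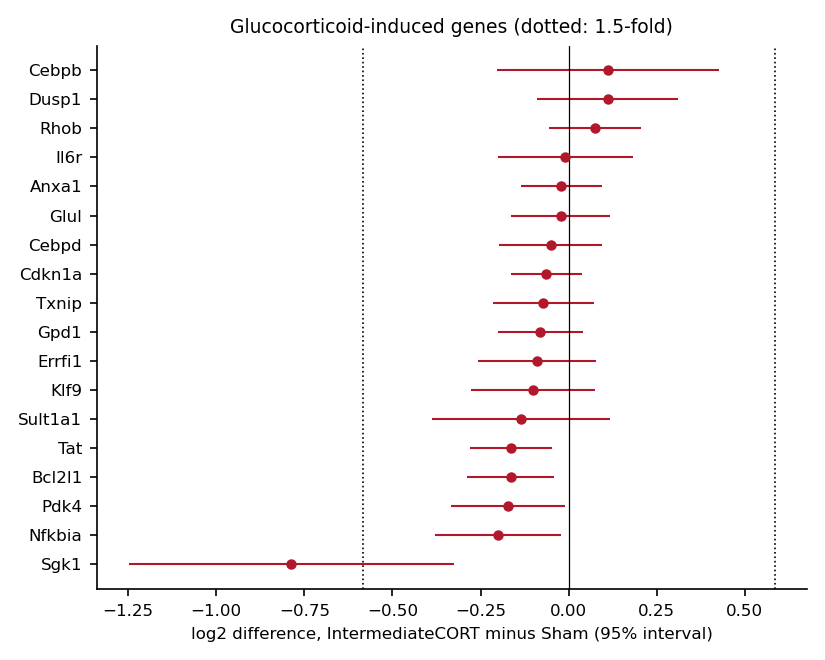
Log2 difference of IntermediateCORT minus Sham (x axis) with its 95% interval for the 18 measured glucocorticoid-induced genes, 1 probe set per gene. Dotted lines mark 1.5-fold, and 17 intervals lie between them while that of Sgk1 (-1.25 to -0.33) crosses the lower one.

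Probe sets that answered the 4-day injections were chosen on arrays that this pair does not use. LowCORT_injected against LowCORT had 16 called probe sets (0.183% of 8740), 9 higher (0.103%) and 7 lower (0.0801%), and 12 carried 1 gene symbol. In IntermediateCORT against Sham 0 of the 16 were called and 1 had an unadjusted p under 0.05, the unnamed M31176mRNA#2_at (-0.55, SE 0.16). The interval lay inside 1.5-fold for 14 of 16, beside 98.4% of all probe sets. Their median absolute difference was 0.088, beside 0.045 over all probe sets and a median change of 0.40 under injection. In 14 of 16 the difference pointed against the change under injection, with the exceptions of Grifin, a galectin-related protein of the lens (a value that rounds to 0.00, SE 0.06), and Dcn, the matrix proteoglycan decorin (-0.06, SE 0.12). Sult1a1 and Car4 each entered this count with more than 1 probe set. Several of the 14 differences were smaller than their SE, so their sign is uncertain.

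Csad, an enzyme of taurine synthesis, had 7.21, 7.53 and 7.94 in IntermediateCORT and 7.30, 7.60 and 7.92 in Sham, a difference of -0.12 (SE 0.09). Serpinh1, a collagen chaperone, had 8.30, 8.43 and 8.59 in IntermediateCORT and 8.18, 8.38 and 8.54 in Sham, a difference of 0.04 (SE 0.05) inside 1.2-fold. Gal, the neuropeptide galanin, had -0.09 (SE 0.06), and Ret, the receptor kinase for ligands of the GDNF family, had -0.06 (SE 0.10). Lxn, a carboxypeptidase inhibitor, had 0.03 (SE 0.07). The plot of both differences sets these values beside the changes under injection, which are large because they chose the probe sets.

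**Figure D5:**
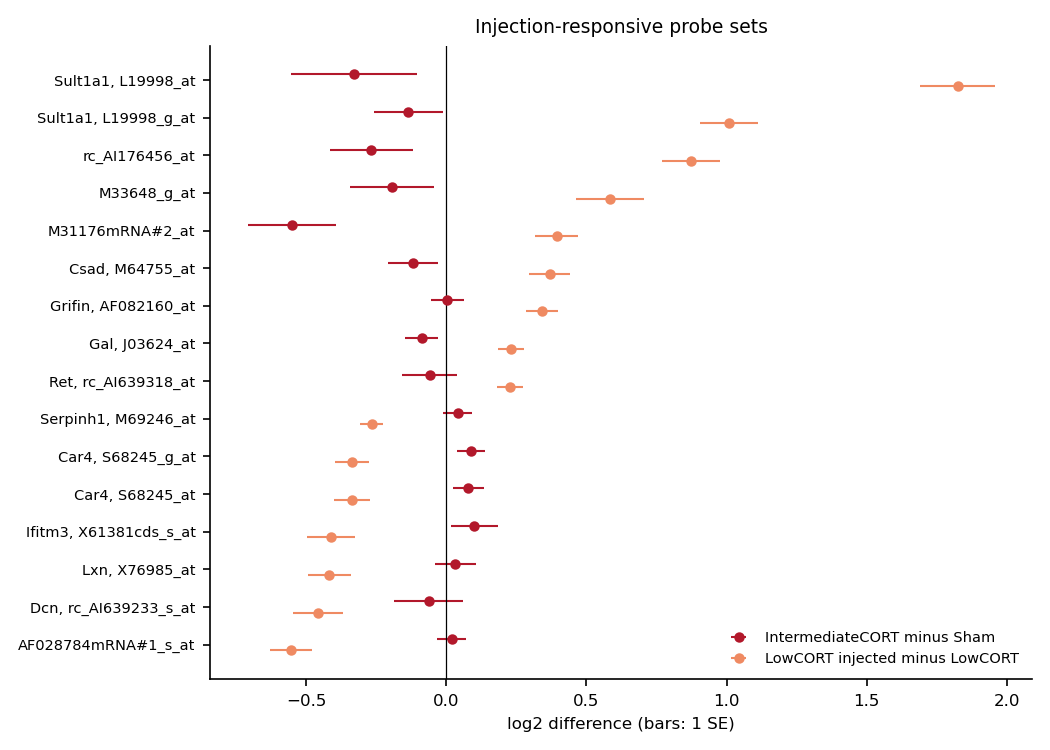
Log2 difference (x axis, bars 1 SE) of IntermediateCORT minus Sham (red) and of LowCORT_injected minus LowCORT (orange) for the 16 injection-responsive probe sets, ordered by the orange difference. Red points lie between -0.55 and 0.10, and in 14 of 16 rows on the opposite side of 0 from the orange point; the orange points chose the rows.

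Among genes that neuronal activity induces, 21 of 26 listed were measured and 0 were called, with 13 positive and a median of 0.02. An unadjusted limma p under 0.05 was reached by 4 of the 21, beside 3.84% of all probe sets. Members were found by gene symbol, so probe sets without a symbol, such as the called AF030088UTR#1_at, could not enter this or any other list. Arc, which moves glutamate receptors at synapses, had 10.00, 10.48 and 11.19 in IntermediateCORT and 9.63, 9.95 and 10.75 in Sham, a difference of 0.47 (SE 0.17, limma adjusted p = 0.999, unadjusted p = 0.0105). The nuclear receptor Nr4a1 had 0.39 (SE 0.13) and Junb, a component of AP-1, had 0.37 (SE 0.13), each with 8 of 9 IntermediateCORT arrays above the Sham mean. Their other probe sets had 0.35 (SE 0.14) for Nr4a1 and 0.20 (SE 0.10) for Junb. IntermediateCORT minus LowCORT was 0.66 for Arc (limma adjusted p = 0.0324) and 0.60 for Nr4a1 (adjusted p = 0.013), both called. For Junb it was 0.38 (adjusted p = 0.127), not called. Fos had 0.10 and Egr1 0.14, neither with an unadjusted p under 0.05. Of 33 listed glutamate receptor and spine genes 32 were measured, with 0 called, 20 positive and a median of 0.07. Of these 32, 6 had an unadjusted limma p under 0.05. Beside Camk2a and Arc, Wipf3, a regulator of actin assembly, had 0.32 (SE 0.15) and the calcium sensor Hpca 0.23 (SE 0.11), while the metabotropic receptors Grm2 and Grm4 had -0.29 (SE 0.12) and -0.30 (SE 0.11).

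Of 14 measured interneuron markers 0 were called, 5 were positive and 9 negative, with a median of -0.08, beside -0.01 over all genes, of which 44.2% were positive. An unadjusted limma p under 0.05 was reached by 4 of the 14, beside 3.84% of all probe sets. Calb2, the calcium-binding protein calretinin, had 7.96, 8.14 and 8.25 in IntermediateCORT and 8.08, 8.34 and 8.59 in Sham, with 9 of 9 arrays below the Sham mean (-0.21, SE 0.06, limma adjusted p = 0.649). LowCORT minus Sham was -0.23 for Calb2 (SE 0.06, limma adjusted p = 0.0667). Gad1, the enzyme that makes GABA, had -0.20 (SE 0.07), Tac1, the precursor of substance P, had -0.20 (SE 0.09) and Penk, proenkephalin, had -0.18 (SE 0.08). Pvalb (0.10), Npy (0.15) and Cck (0.14) had positive values. The log2 of the summed level of these markers ranged from 13.28 to 13.59 in IntermediateCORT and from 13.37 to 13.78 in Sham.

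Removal of the adrenal glands also removes their adrenaline and aldosterone. Of 13 measured adrenergic receptors and catecholamine enzymes 0 were called, 4 were positive and 9 negative. An unadjusted limma p under 0.05 was reached by 3 of the 13, beside 3.84% of all probe sets. The receptor Adra1d had the largest difference, 0.24 (SE 0.12), with an interval of -0.01 to 0.49. Below Sham were Adra1b at -0.22 (SE 0.07), Th, tyrosine hydroxylase, at -0.13 (SE 0.05) and Adra2a at -0.13 (SE 0.06). Of 21 measured genes of salt, water and angiotensin 0 were called and 0 had an unadjusted p under 0.05. Agt, angiotensinogen, had 9.78, 10.00 and 10.32 in IntermediateCORT and 9.90, 10.13 and 10.57 in Sham, a difference of -0.09 (SE 0.08, interval -0.25 to 0.07).

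Of the other named genes with the smallest p on the higher side, none was called. Zfp692, a zinc finger protein, had 0.30 (SE 0.06, limma adjusted p = 0.187), Abracl 0.33 (SE 0.09), Rpl19l4, named as a ribosomal protein-like gene, 0.64 (SE 0.17), Nmt1, which attaches myristate to proteins, 0.20 (SE 0.06) and Xpnpep1, an aminopeptidase, 0.21 (SE 0.06). Each lay above the Sham mean in 9 of 9 arrays. The probe set of Rpl19l4 could share its signal with near-identical copies, which makes that value uncertain. LowCORT minus Sham was 0.62 for Rpl19l4 (SE 0.15, limma adjusted p = 0.0356), which was called there. It was 0.19 for Zfp692, 0.03 for Abracl, 0.06 for Nmt1 and 0.20 for Xpnpep1, none called. On the lower side were Nnat, the imprinted gene neuronatin (-0.49, SE 0.13, adjusted p = 0.649), Nxph3, a neurexin ligand (-0.39, SE 0.11), Trhr, the receptor of thyrotropin-releasing hormone (-0.25, SE 0.07), and Igfbp6, which binds insulin-like growth factors (-0.26, SE 0.08). Trhr and Igfbp6 lay below the Sham mean in 9 of 9 arrays. LowCORT minus Sham was -0.34 for Nnat, -0.27 for Nxph3 and -0.25 for Igfbp6, none called. Per2 of the circadian clock had 0.32 (SE 0.10, unadjusted p = 0.00321), with 9 of 9 arrays above the Sham mean, and 0 of 10 measured clock genes were called.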

How the data were processed

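The values were deposited on a log2 scale for 8799 probe sets of an Affymetrix rat array, 1 column per animal. The submitters' processing notes name MAS5, RMA and R 2.7.1 without a role, and the sources used here do not say which of them the authors applied to these log2 values. Values ran from 2.82 to 14.37 and array medians from 7.27 to 7.33, so no normalization was added. The 59 control probe sets were left out, and 8740 were tested with no filter. Of these 7006 carried 1 gene symbol, 308 several and 1426 none; 6985 matched the GRCr8 gene table, and 0 symbols differed. Each pair of groups was fitted alone with limma 3.58.1 in R 4.3.3 (lmFit, eBayes, two-sided, Benjamini-Hochberg over all 8740, called at an adjusted p under 0.05). Adjusted p, SE and 95% intervals are from that fit. The number of arrays limits the precision. The fit was tested on simulated data.

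The labels do not say how animals were allotted or processed in batches, and p-values measure the spread between these animals. For gene lists the probe set with the highest mean stood for a gene. The members and the 30 gene lists were chosen with earlier results of these data known. Besides fixed steroid genes, the text names up to 10 probe sets per direction with the smallest p, up to 3 members of a list and 10 injection-responsive probe sets; AF030088UTR#1_at, other unnamed probe sets, further probe sets of these genes, and B2m, Aif1, Csf1r, Cx3cr1, Il6r, Fcgr2b, Camk2b, Camk2g, Adra1d, Fos, Egr1, Wipf3, Hpca, Grm2, Nfkbia, Penk, Pvalb, Npy, Cck, Gal and Ret were added after their values were seen.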

Additional observations from a re-analysis of the deposited data

Results flagged for a closer look

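For 87 probe sets in each of IntermediateCORT and Sham, the gap between the most extreme animal and its neighbour was set against Dixon's 95% critical value. Chance flags about 1 in 20 groups, and 10 of 174 were found. In IntermediateCORT animal 11 was far below the others for Calb1 (9.26, next 9.85), Wipf3 (10.21, next 10.93) and the unnamed rc_AI176456_at (10.47, next 11.42). In Sham animal 1 was lowest for Klf9 by D12769_at (8.30, next 8.61) and Lxn (8.81, next 9.06). Sham animal 5 was highest for RT1-Db1 (6.33, next 5.99) and Gal (8.01, next 7.72), Sham animal 6 for Agt (10.57, next 10.21) and C1qb (10.19, next 9.85), and Sham animal 2 for the unnamed X05472cds#2_at (10.45, next 9.65).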

How the results depend on the processing

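No paired analysis was possible because subject numbers name single animals and no number occurs in both groups. The count of called probe sets, 2 here, was 1 with all 39 arrays in 1 model, 4 with a filter at the 30th percentile of the mean, 1 with a filter at the 50th percentile (which leaves out Cd74 by X13044_g_at), 5 with both 3' to 5' differences as covariates, 4 at an adjusted p under 0.10, and 1 to 3 when single arrays were left out. It was 2 with quantile normalization, median centring, subject order as a covariate, array weights, and trended robust variances. AF030088UTR#1_at was called in all 9 of these fits and all 19 omissions (1.04 to 1.15). Cd74 by X13044_g_at kept its direction and lost its call with all 39 arrays (adjusted p = 0.499), array weights (0.0808) and 13 of 19 omissions. Camk2a by M16960_s_at was called with the 30th percentile filter (0.0472), the 3' to 5' covariates (0.0364), array weights (0.015) and without Sham animal 9 (0.0398). Cd74 by X13044_at was called with the 30th percentile filter (0.0472) and without IntermediateCORT animal 13 (0.0266) or Sham animal 5 (0.043). AF050659UTR#1_at and M13100cds#2_s_at were called with the 3' to 5' covariates (0.0364 each), and M13100cds#2_s_at also without Sham animal 10 (0.0355). Intervals inside 1.5-fold numbered 8596 to 8653 in fits of all probe sets, 8563 to 8613 when single arrays were left out, and 6011 and 4286 under the filters, which test fewer probe sets. Those filters left out Pdk4, Tat, RT1-Db1, Fcgr2b, Nxph3 and Ret, whose mean levels lay under the 30th percentile. The median of the injection-responsive probe sets in the direction of the injection change was -0.09, and -0.11 to -0.07 when single arrays were left out. Of 2404 values of single probe sets 42 changed sign, all of genes near 0 and none called. With the 3' to 5' covariates these were Il6r (0.0191) and Calb1 (0.00684), and with array weights Il6r (0.00435), Calb1 (0.0338), Nr3c1 (0.00255) and AF028784mRNA#1_s_at (-0.00157). With single arrays left out the values ran from -0.0495 to 0.0306 for Il6r, -0.0562 to 0.081 for Calb1, -0.0398 to 0.0133 for B2m, -0.026 to 0.00589 for Nr3c1, -0.0239 to 0.0238 for Grifin, -0.00357 to 0.059 for Lxn and -0.0998 to 0.00219 for Ret.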

Other observations

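Medians of further gene groups were also close to 0. In each of the 30 lists 0 members were called in IntermediateCORT against Sham by the probe set that stands for the gene (for Cd74 this is not the called one), and list medians ran from -0.11 for oligodendrocytes and myelin (9 measured genes) to 0.08 for CA1 pyramidal neurons (5 genes). Of 16 cholesterol synthesis genes, 9 were positive (median 0.01), of 25 genes of glycolysis and glucose use 9 (median -0.01), and of 19 respiratory chain genes 6 (median -0.04). Of 28 extracellular matrix genes 22 were negative (median -0.05), as were 18 of 26 growth factor and insulin signalling genes (median -0.04) and 12 of 16 genes of GABA synthesis and receptors (median -0.03). Chaperones and heat shock genes had a median of 0.03, metallothioneins and antioxidants -0.06, calcium buffers, pumps and channels 0.01, astrocytes -0.03, endothelial cells and pericytes 0.02, and blood cells -0.02. Of the 29 measured calcium genes, 15 were positive and 14 negative. Among them 6 had an unadjusted limma p under 0.05, beside 3.84% of all probe sets, so their median near 0 hides differences of both signs.

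Some probe sets with no gene symbol shared an ID stem and a direction, a pattern seen after the values were known and given with no test. All 7 probe sets that start with M13100 were higher in IntermediateCORT by 0.37 to 0.74, all 3 that start with X05472 by 0.54 to 0.93, and both that start with X53581 by 0.49 and 0.54. None was called (lowest limma adjusted p = 0.175). IDs that start with AF03008, the stem of the called AF030088UTR#1_at, did not share a direction. AF030086UTR#1_at had 0.73 (SE 0.20), AF030087UTR#1_at -0.01, AF030087UTR#1_g_at -0.03 and AF030089UTR#1_at 0.01. The next sentences return to the stems M13100, X05472 and X53581. Each probe set of these 3 stems was also higher in LowCORT than in Sham, and some but not all were called there. LowCORT exceeded Sham by 0.58 for M13100cds#2_s_at (limma adjusted p = 0.0356) and 0.56 for X05472cds#1_s_at (adjusted p = 0.0393). For X53581cds#3_f_at it was 0.59 (adjusted p = 0.0356). IntermediateCORT minus LowCORT was 0.08, 0.14 and -0.05 in that order. AF050659UTR#1_at, also unnamed, had 6.95, 7.67 and 8.61 (lowest, median, highest) in IntermediateCORT and 5.91, 6.56 and 7.39 in Sham, a difference of 1.02 (SE 0.21, limma adjusted p = 0.164), with 9 of 9 arrays above the Sham mean. For this probe set LowCORT exceeded Sham by 0.79 (SE 0.22, limma adjusted p = 0.0985).

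Cd74 and Camk2a lie close to each other on chromosome 18 in the GRCr8 gene table, with Tcof1, LOC102550733 and Arsi between them. Tcof1, a nucleolar protein, had -0.05 (SE 0.06), and the nearby Ndst1, Synpo and Csf1r had -0.08, a value that rounds to 0.00, and 0.01.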
